A study of Mus musculus with 2 samples.

Results

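The microRNA genes that run from Mir379 to Mir410 on mouse chromosome 12 were examined in small RNA from embryonic lung. They were taken as every gene row of the deposited count tables that GENCODE places on the plus strand of chromosome 12 from the first base of Mir379 to position 109747960 (mm10), a rule that uses position and no measured value. The window spans 38901 bp and holds 34 of the 1973 gene rows, and it runs past Mir410 to include Mir3072. The study sequenced inserts of less than 30 nt from whole lung of B6NCrl mouse embryos at embryonic day 15.5. There were 2 libraries and 1 group: lungs of 78 embryos were pooled for replicate 1 and those of 62 for replicate 2, sexes mixed, with no treatment or mutation named in the labels. Since a single donor identifier is attached to the 2 libraries, the SDs below describe the spread between 2 pools of 1 strain, part of which may be technical. With 1 group there was no comparison between conditions, and levels within the lung are described.

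MicroRNAs are cut from hairpin precursors, and each mature arm guides the silencing machinery to messenger RNAs, mainly through its seed, bases 2 to 8 from the 5′ end. The Mir379 to Mir410 genes lie in the imprinted Dlk1-Dio3 domain, where the protein-coding genes are expressed from the paternal chromosome and the noncoding RNAs, these microRNAs among them, from the maternal one. The microRNAs are thought to be processed from long noncoding transcripts downstream of Meg3, of which Mirg is the annotated one here. The cluster is best known from the brain, and it is also expressed in the embryo and placenta. It is confined to placental mammals, and many of its hairpins resemble each other in sequence.

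Replicate 1 held 5354530 and replicate 2 held 6489390 reads counted on the strand of their microRNA gene, so that a single count equalled 0.187 and 0.154 CPM (counts per 1000000 gene counts of a library). For a gene without counts the upper limit was set at 3 counts, equal to 0.560 CPM in replicate 1 and 0.462 CPM in replicate 2, which covers counting error only. Reads mapped to several places were 31.4% and 30.6% of all reads and were counted for no gene. The labelled tissue was checked against its markers. The 5 epithelial genes of the miR-200 family summed to 31937 and 31476 CPM in replicates 1 and 2, and endothelial Mir126a stood at 68906 and 67001 CPM. Mir143 and Mir145a, for smooth muscle and mesenchyme, summed to 77625 and 83086 CPM. Lists for striated muscle, liver, erythroid cells and leukocytes summed to at most 1239 CPM. Of striated muscle, Mir1a-1, Mir133a-1 and Mir133a-2 were at 0, and as copies of other genes their reads can map to several places. Neither Mir1a-2 nor leukocyte Mir142 was a gene row, so these sums may be too low. Neural Mir9-1 was not a gene row either. Of the 8 neural genes that were, 3 were detected, their list summing to 327 and 192 CPM, which may also be too low. The neural genes Mir124a-1, Mir124a-2, Mir124a-3 and Mir9-2 were at 0, and as copies of other genes their reads can map to several places.

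Mature sequences from RefSeq (GRCm38.p6, plus strand) matched 33 of the 34 members, 61 arms of 19 to 25 nt. They carried 56 distinct seeds, so that most arms had a seed of their own within the block. Only 5 seeds were shared by a pair of members, and these are shown because they tie the members into groups, with the seed in capitals and miR-411-5p beside its relative miR-379-5p.
miR-379-3p: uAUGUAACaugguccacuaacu
miR-411-3p: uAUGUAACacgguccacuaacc
miR-379-5p: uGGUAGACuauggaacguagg
miR-1193-5p: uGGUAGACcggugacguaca
miR-411-5p: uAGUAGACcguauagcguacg
miR-494-5p: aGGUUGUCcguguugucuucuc
miR-410-5p: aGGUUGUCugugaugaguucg
miR-496a-5p: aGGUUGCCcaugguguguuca
miR-453: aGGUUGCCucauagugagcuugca
miR-758-5p: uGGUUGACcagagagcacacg
miR-1197-5p: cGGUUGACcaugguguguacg

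The closest of these pairs was miR-379-3p and miR-411-3p, which had the same base at 20 of 22 positions, counted from the 5′ end without gaps. The 5p arms of the same precursors were the same at 14 of 21 positions and have different seeds. The pair of miR-379-5p and miR-1193-5p was the same at 10 of 20 positions. The pair miR-494-5p and miR-410-5p matched at 16 of 21, miR-1197-5p and miR-758-5p at 14 of 21, and miR-453 and miR-496a-5p at 8 of 21. The listed arms of the other highly counted members had seeds found on no other member. For Mir487b only the 5p arm was listed, as for Mir539 and Mir376c, and for Mir485 only the 3p arm. Arms that were not listed were not searched. Arms of the highest of these precursors are given, 1 arm each for Mir487b, Mir381 and Mir134, with miR-300-3p beside its relative miR-381-3p.
miR-487b-5p: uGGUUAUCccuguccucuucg
miR-369-5p: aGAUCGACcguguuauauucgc
miR-369-3p: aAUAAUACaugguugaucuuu
miR-382-5p: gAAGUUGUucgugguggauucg
miR-382-3p: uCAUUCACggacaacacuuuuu
miR-541-5p: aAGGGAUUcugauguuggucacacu
miR-541-3p: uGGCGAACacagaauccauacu
miR-381-3p: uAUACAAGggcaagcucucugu
miR-300-3p: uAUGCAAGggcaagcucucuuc
miR-134-5p: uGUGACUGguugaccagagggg

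Although miR-300-3p and miR-381-3p were the same at 19 of 22 positions, they differ within the seed and so fell into no shared group. Across all mouse mature arms in the RefSeq table, 11 of the 61 arms had a seed that also occurs outside the block. Among the 11 arms, miR-1193-3p shares its seed with miR-370-5p, from the same chromosome 12 domain, and miR-329-3p with miR-362-3p.

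The block was expressed in the embryonic lung of both pools. It took 216584 counts in replicate 1, or 4.04% of the gene counts (95% exact binomial interval 4.03 to 4.06), and 252117 in replicate 2, or 3.89% (3.87 to 3.90), a mean of 3.96% ± 0.113 (SD, n = 2). With at least 10 counts in both libraries as the limit of detection, 29 of 34 members (85.3%) were detected, whereas 18.1% of all gene rows were. A mean above 1000 CPM was reached by 9 members (26.5%), against 4.82% of all gene rows. The median detected member stood at 246 CPM, and the median of all detected genes at 123 CPM. No test of these shares was made.

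**Figure D1:**
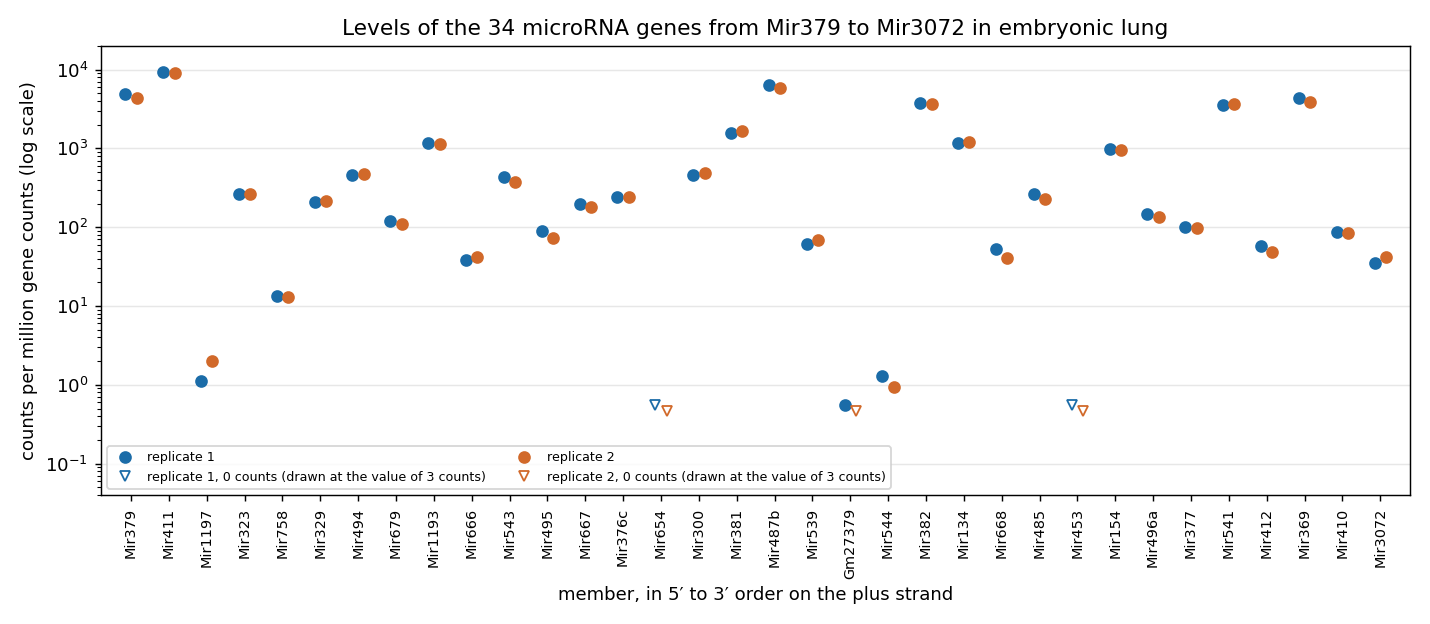
Level of each of the 34 members in CPM (vertical axis, log scale) in 5′ to 3′ order (horizontal axis), as 1 point for each replicate. The points of the replicates lie close together for most members, while members span from below 1 CPM to 9215 CPM for Mir411, and triangles mark libraries with 0 counts, drawn at the value of 3 counts.

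Mir411, the highest member, stood at 9267 CPM in replicate 1 and 9164 CPM in replicate 2 (9215 ± 73.3 CPM, SD, n = 2). It lies 1049 bp downstream of Mir379, at 109710175 to 109710256 (ENSMUSG00000065477.2), outside any annotated Mirg exon or intron. Mir379, the first gene of the block (66 nt, ENSMUSG00000065498.3), stood at 4844 and 4393 CPM (4618 ± 319 CPM, SD, n = 2). Mir411 exceeded its neighbour by 2.00-fold on the mean of the log2 ratios (1.00 ± 0.0883, SD, n = 2), higher in both libraries. Their 3p arms share the seed AUGUAAC, printed above, and together the 2 genes held 34.9% ± 0.00469 of the counts of the block (SD, n = 2). The tables give 1 count per precursor, so how these reads divide between the arms was not measured.

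Mir487b was second, at 6382 CPM in replicate 1 and 5886 CPM in replicate 2 (6134 ± 351 CPM, SD, n = 2). It lies at 109727333 to 109727414 (ENSMUSG00000076219.1), between Mir381 and Mir539. Its 3′ neighbour Mir539 stood at 60.7 and 69.3 CPM, although the gap between them is 714 bp, so that Mir487b was 94.5-fold higher (log2 ratio of Mir539 over Mir487b -6.56 ± 0.218, SD, n = 2). This was the widest difference between detected neighbours in the block. Mir381, 436 bp to the 5′ side, stood at 1562 and 1675 CPM (1619 ± 80.1 CPM, SD, n = 2), the seventh highest member.

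Mir369, whose 3p arm is known to act at an AU-rich element of a messenger RNA, stood at 4339 CPM in replicate 1 and 3866 CPM in replicate 2 (4103 ± 334 CPM, SD, n = 2). It lies at 109743418 to 109743496 (ENSMUSG00000065561.2), across the end of an exon of Mirg. Mir412 lies 49 bp upstream of it and stood at 57.3 and 49.0 CPM, so that Mir369 was 77.3-fold higher (log2 6.27 ± 0.0426, SD, n = 2). On the other side Mir410, 218 bp downstream and inside a Mirg exon, stood at 86.3 and 85.4 CPM, which put Mir369 47.7-fold above it. Mir369 was thus high in both libraries between a pair of low neighbours.

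Mir382 (109733771 to 109733846, ENSMUSG00000065428.3) stood at 3774 and 3636 CPM (3705 ± 97.5 CPM, SD, n = 2) and overlaps the end of a Mirg exon. Mir541, in a Mirg intron (109742409 to 109742498, ENSMUSG00000076052.1), stood at 3600 and 3671 CPM (3635 ± 50.8 CPM, SD, n = 2). The values of these 2 genes overlapped between the libraries, so their order was not resolved. Mir134, known from dendritic spines of neurons, where it acts on Limk1, lies in a Mirg exon (109734139 to 109734209, ENSMUSG00000065426.2). It stood at 1183 CPM in replicate 1 and 1222 CPM in replicate 2 (1203 ± 27.7 CPM, SD, n = 2), the eighth highest member.

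Counts were concentrated in few members. Mir411 held 23.2% ± 0.478 of the counts of the block, the first 3 genes 50.4% ± 0.439 and the first 8 held 86.3% ± 0.102 (SD, n = 2). The first 8 were the same genes in both libraries, and the first 4 were also in the same order. A read of this assay is a whole short insert, so CPM was not divided by precursor length; ranking per nt of precursor kept the same 8 of 8. Among the 28 pairs of neighbouring ranks of the 29 detected members, the 2 libraries' values overlapped in 7 pairs, at rank 5 (Mir382 and Mir541), rank 11 (Mir300 and Mir494) and 5 lower ranks. In the other 21 pairs each library's value of the higher gene exceeded both values of the lower one, which with 2 libraries is a description and not a test.

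Below these came Mir1193, the partner of Mir379 by seed, at 1182 and 1150 CPM. Another 12 members lay between 100 and 1000 CPM, from Mir377 (100.4 ± 1.91 CPM) to Mir154 (965 ± 8.88 CPM, SD, n = 2). Mir494, Mir300, Mir543, Mir323, Mir485, Mir376c, Mir329, Mir667, Mir496a and Mir679 filled the range between them. A further 8 detected members stayed at or below 100 CPM. The lowest of these was Mir758, at 13.3 and 13.1 CPM (13.2 ± 0.114 CPM, SD, n = 2), and the highest Mir410, at 85.8 ± 0.645 CPM. From Mir411 to Mir758 the detected members spanned 699-fold.

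The 5 members that were not detected were counted as follows. Mir1197 had 6 counts in replicate 1 and 13 in replicate 2, and Mir544 had 7 and 6. Gm27379, a precursor with no other symbol in the annotation, had 3 and 0. Mir654 and Mir453 had 0 counts in both libraries, which allows up to 0.560 and 0.462 CPM, and no other precursor searched holds their mature arms. Mir453 lies in a Mirg intron between Mir485 and Mir154, both of which were detected. An uncounted precursor thus lay between a pair of counted ones, Mir485 at 246 CPM and Mir154 at 965 CPM.

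**Figure D2:**
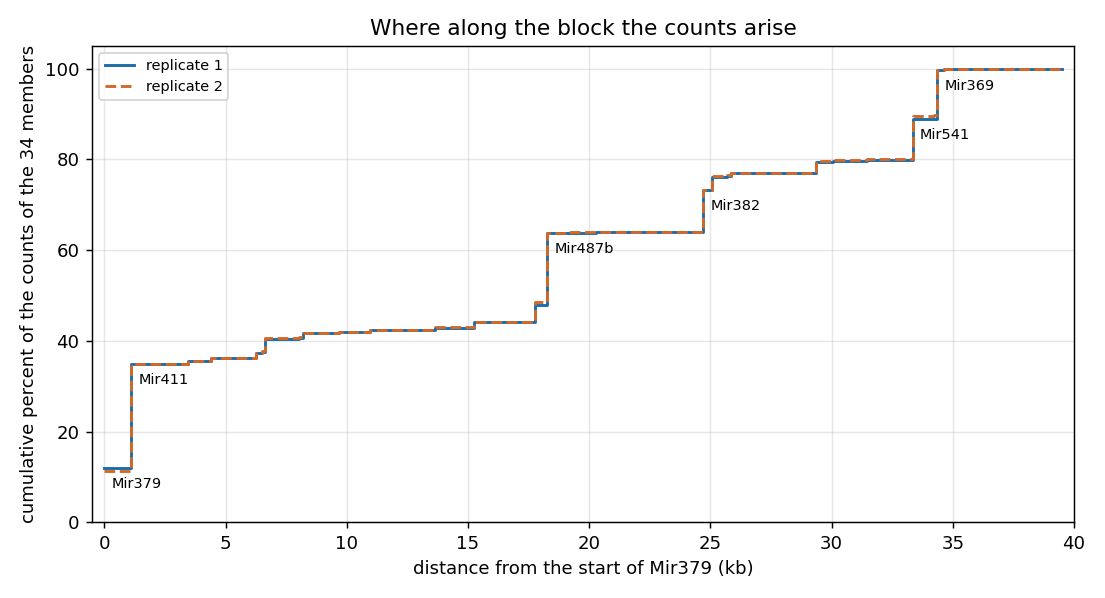
Cumulative percent of the counts of the 34 members (vertical axis) against the distance from the start of Mir379 in kb (horizontal axis), with 1 stepped line for each replicate. The lines rise in a few steps, at Mir379 and Mir411 (34.9% by Mir411), at Mir487b (63.7%), at Mir382 (73.2%) and at Mir541 and Mir369 (99.7%), and the replicates follow each other.

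Counts arose at a few places along the block, as the plot of cumulative counts shows. By the end of Mir411, the second gene, 34.9% had been reached. The 15 genes from Mir1197 to Mir381 brought it to 48.2%, and Mir487b brought the sum to 63.7%. The 21 members 5′ of Mirg, a noncoding gene annotated at 109729764 to 109749460, held 63.9% ± 0.00303 of the counts, and the 13 members inside it 36.1% ± 0.00303 (SD, n = 2). The median level was 212 CPM among the former and 141 CPM among the latter, with 17 and 12 detected. Of the 13, GENCODE M21 places 4 in exons (Mir134, Mir485, Mir377, Mir410), 4 in introns (Mir453, Mir154, Mir496a, Mir541) and 5 across an exon end (Mir382, Mir668, Mir412, Mir369, Mir3072). High and low members occurred in each kind of place.

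Across members, level went with position and with hairpin features at most weakly, and in part with a sign that depended on which members were taken. Over the 29 detected members, Spearman's rho of level with order along the chromosome was -0.17 in replicate 1 and -0.15 in replicate 2. With the GC content of the precursor it was -0.27 in both libraries, and with the folding energy per nt predicted by RNAfold it was 0.29 in both. With precursor length it was -0.01 and 0.03. Over all 34 members the rho with folding energy per nt had the opposite sign, -0.09 in both libraries. That with length was -0.20 and -0.17, that with GC content -0.31 in both and that with order -0.12 and -0.11. The members share their libraries and locus, and these values are descriptions with no test. Between detected members that follow each other among the gene rows, 24 pairs in all, the higher gene exceeded the lower by a median of 6.06-fold and by more than 10-fold in 11 pairs, while the SD of the log2 ratio between the libraries was at most 0.296. The differences between neighbours were therefore far larger than the spread between the pools in most pairs, with Mir667 and Mir376c closest at 1.28-fold.

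Grouped by seed, the pair of Mir379 and Mir411 (miR-379-3p and miR-411-3p) held the share given above, and the pair of Mir379 and Mir1193 (GGUAGAC) held 14.6% ± 0.445 of the counts of the block (SD, n = 2). The pair of Mir494 and Mir410 (GGUUGUC) held 1.40% ± 0.0547, with Mir494 at 462 and 472 CPM (467 ± 6.56 CPM, SD, n = 2) and 5.44-fold above Mir410. The pair of Mir496a and Mir453 (GGUUGCC) held 0.356% ± 0.0168, all of it from Mir496a at 149 and 134 CPM (141 ± 10.7 CPM, SD, n = 2). The pair of Mir758 and Mir1197 (GGUUGAC) held 0.0372% ± 0.00235. The 9 members of these groups held 39.6% ± 0.0724 of the counts. Since a precursor is counted whole, these shares count reads of both arms, including the arm without the shared seed.

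The hairpins also shared sequence outside the seeds. The letters AGUAUC, chosen after the sequences were seen and searched on the transcribed strand only, were found in 6 of 34 precursors (17.6%), in 1.95% of the 1894 precursors of the tables and in 0 of the 19 microRNA genes upstream in the domain. The precursors had median lengths of 80.5 nt in the block, 90 nt in all and 89 nt upstream. The 6 were Mir411, Mir758, Mir329, Mir494, Mir487b and Mir369, from 13.2 to 9215 CPM, so they included both high and low members. A stretch of at least 20 nt was shared with another precursor by 4 of 34 members, beside 929 of 1973 gene rows. It matters for reads that map to several places, and the stretches of the 2 highest members are shown in lower case throughout.
Mir411 and Mir758: gguccacuaacccucaguauc
Mir487b and Mir376b: cauccacuuuuucaguauca

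The remaining sharer was Mir376c, with 31 nt in common with Mir376b. None of these stretches holds a whole mature arm listed for a member, and none of the 61 arms occurred whole in any other of 2202 annotated mouse microRNA precursors on either strand. Matches elsewhere in the genome, and reads with mismatches, were not examined. Without the 4 sharers the block took 2.40% of the gene counts.

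No read was counted on the strand opposite any of the 34 members in either library. Most other gene rows had none either: 78 of 1973 gene rows, and 37 of the 357 detected genes, had any such read. In the same window, 4 minus-strand entries (Mir299b, Gm25750, Gm25252 and Gm24321) overlap plus-strand genes that are not rows of the tables, and nearly all of their reads were on the opposite strand, up to 6543 and 6388 CPM at Gm24321. Those values are not part of the block's share as given, and with them it was 5.06% (an alternative chosen after seeing the data). Ranks, shares of the counts of the block and its profile by position likewise cover the 34 gene rows only. The reads opposite Gm24321 exceeded those of Mir487b, the second member, in both libraries (6382 and 5886 CPM).

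**Figure D3:**
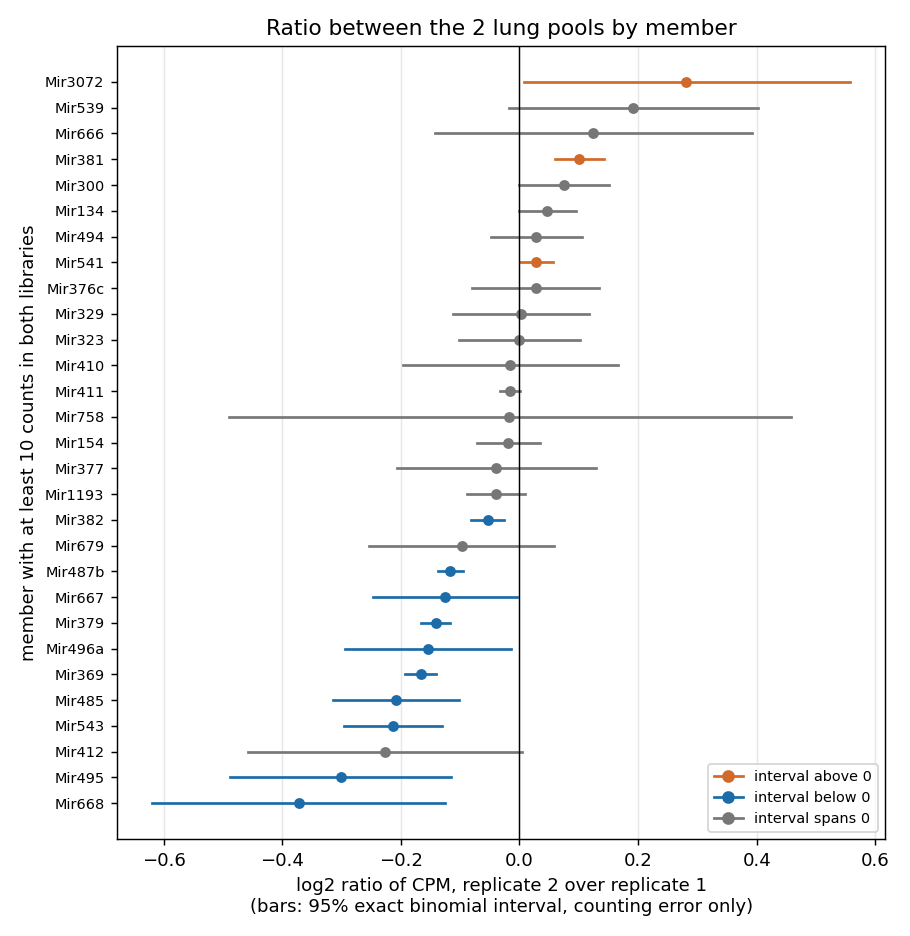
log2 ratio of CPM in replicate 2 over replicate 1 (horizontal axis) for the 29 detected members (vertical axis), with 95% exact binomial intervals as bars. Intervals lie above 0 for 3 members and below 0 for 10, and most points lie within 0.3 of 0, from Mir668 (-0.37) to Mir3072 (0.28).

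The members differed little between the pools. The median log2 ratio of replicate 2 over replicate 1 was -0.02 over the 29 detected members and 0.01 over the 357 detected genes, and the median size of the ratio was 0.10 and 0.14. The 95% binomial interval, which covers counting error only, lay above 0 for 3 members (10.3%), beside 19.6% of all detected genes, and below 0 for 10 members (34.5%), beside 25.2%. The lowest ratios were those of Mir668 (52.9 and 40.8 CPM, log2 -0.37, interval -0.62 to -0.13), Mir495 (89.5 and 72.6 CPM, log2 -0.30, interval -0.49 to -0.12) and Mir412 (57.3 and 49.0 CPM, log2 -0.23, interval -0.46 to 0.00). The highest were those of Mir3072 (34.7 and 42.2 CPM, log2 0.28, interval 0.01 to 0.56), Mir539 (60.7 and 69.3 CPM, log2 0.19, interval -0.02 to 0.40) and Mir666 (38.5 and 41.9 CPM, log2 0.12, interval -0.14 to 0.39). All 6 were among the members below 100 CPM, where counts are few. Each pool was sequenced once, so no p was computed.

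Of the well counted members, Mir369 had a log2 ratio of -0.17 and Mir379 one of -0.14, while Mir411 (-0.02) and Mir541 (0.03) were close to level. The widest ratio among detected members was 1.29-fold. Among the marker lists of other cell types, those of neural tissue (327 CPM in replicate 1 and 192 CPM in replicate 2), liver (470 and 278 CPM) and leukocytes (726 and 689 CPM) were lower in replicate 2, as was the share of the block. Those of striated muscle (929 and 1239 CPM) and erythroid cells (684 and 833 CPM) were higher. Within the striated muscle list Mir208a was lower (573 and 255 CPM). Mir208b (269 and 780 CPM), Mir206 (54.2 and 156 CPM) and Mir499 (31.6 and 46.4 CPM) were higher. Of the lists for lung cells, smooth muscle and mesenchyme was higher (77625 and 83086 CPM), and epithelium and endothelium were slightly lower. The part of these lists in the difference was not tested. With TMM scaling the members with an interval above 0 were 6, and those below 0 were 8. The percent over all detected genes was not computed under TMM, so these 2 counts are not set against all genes.

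**Figure D4:**
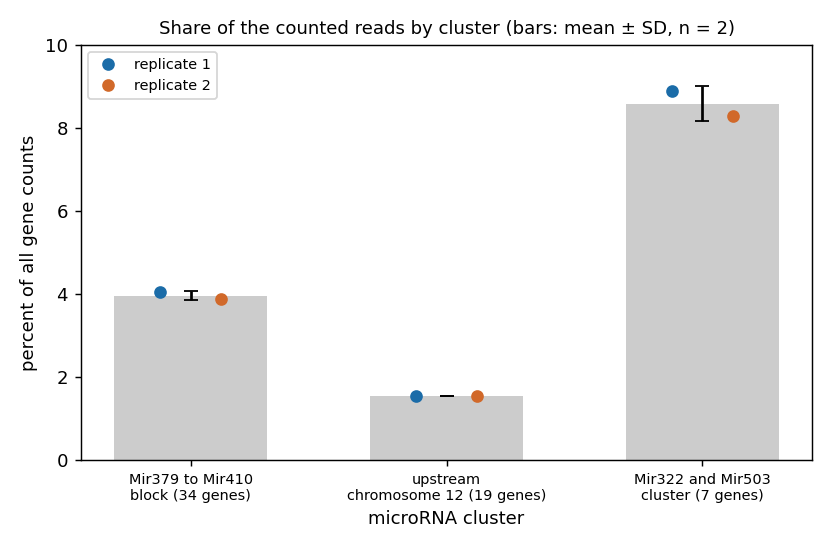
Percent of all gene counts (vertical axis) taken by 3 microRNA clusters (horizontal axis), as points for each replicate and bars for the mean with its SD (n = 2). The block lies at 3.96%, above the upstream chromosome 12 genes (1.54%) and below the Mir322 and Mir503 cluster (8.58%) in both libraries.

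The block was set against the other microRNAs of its domain and against another large cluster. The 19 plus-strand microRNA genes upstream of Mir379 on chromosome 12, which begin near Meg3 and include those opposite Rtl1, took 1.54% of the gene counts in each library (1.54% ± 0.00323, SD, n = 2), with 14 of 19 detected. The share of the block exceeded theirs 2.57-fold (log2 ratio 1.39 in replicate 1 and 1.33 in replicate 2, mean 1.36 ± 0.0441, SD, n = 2). These shares are sums over 34 and 19 genes. The median detected gene was lower in the block, at 246 CPM, than upstream, at 516 CPM. The 7 genes of the X-linked Mir322 and Mir503 cluster, with a median of 987 CPM, took 8.88% and 8.28%. The share of the block stood 2.16-fold below theirs (log2 ratio -1.13 and -1.09, mean -1.11 ± 0.0296, SD, n = 2). The highest gene of the X-linked cluster had a mean of 70418 CPM, so most of that cluster's share came from a single gene. The highest gene of the block had a mean of 9215 CPM. Both differences in share exceeded the SD of the log2 ratio and had the same direction in both libraries. An exact 2-sided permutation test over the libraries gave p = 0.333 for each, the smallest that 2 values against 2 allow, and exact sign flips within libraries gave p = 0.50, also the smallest possible. Neither comparison could pass a threshold of 0.05. With genes that share 20 nt with another precursor left out on both sides (4 of the block, 3 upstream and 2 of the X-linked cluster), the log2 ratios were 0.64 and -1.83, in the same directions.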

How the data were processed

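Small RNA from 2 pools of embryonic lung was sequenced as 1 library each. The authors deposited raw counts of reads for each microRNA gene on mm10 with annotation M4, per the readme file supplied with the tables; the aligner and counter: not given in the sources used here. Of the 3 value columns, 1 ignores strand, 1 holds the annotated strand and 1 its opposite, a reading taken from the column totals. The annotated-strand column was used, and CPM was computed from its 5354530 and 6489390 gene counts. Summary lines (unmapped 16.8% and 17.2%, several places 31.4% and 30.6%, no gene 4.78% and 4.22% of all reads) stayed out of the totals. Positions came from GENCODE M21 on GRCm38, matched without the version suffix to 1894 of 1973 identifiers; 12 of the 34 members have another version there, so their counted interval may differ slightly. Mature sequences came from RefSeq.

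The members and lists were chosen with earlier results of these data known. Named in full were the 8 highest members, and with their values the undetected members, the 3 widest ratios in each direction, the highest and lowest of each seed group and the first and last gene. Means and SDs cover 2 libraries. Intervals are 95% exact binomial and, since no molecular identifiers are recorded, cover counting error only, as do the floors of 3 counts. Shared stretches were searched from 20 nt up, and folding energies came from RNAfold 2.7.2. Alternatives were counts without regard to strand, all reads as the total, TMM (edgeR 4.0.16), DESeq2 1.42.0 size factors, minimum counts of 1 and 100, each library alone, sharers left out and a seed of bases 2 to 7. Analyses used Python 3.11.15, numpy 2.4.6, pandas 2.3.3, scipy 1.17.1, matplotlib 3.10.9 and R 4.3.3.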

Additional observations from a re-analysis of the deposited data

Results flagged for a closer look

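In the window of the block, 4 entries annotated on the minus strand had reads on the opposite, plus strand, far above the 0.560 and 0.462 CPM that a count of 0 allows, in a column that the levels above do not use. Gm24321, which overlaps Mir409, had 35035 and 41454 such reads in replicates 1 and 2, a mean of 6466 ± 110 CPM (SD, n = 2), beside 0 on its own strand. Gm25252, which overlaps Mir376a, had 2307 ± 35.4 CPM there, and Gm25750, which overlaps Mir380, had 741 ± 42.2 CPM, each with 0 reads on its own strand. Mir299b, which overlaps Mir299a, had 2056 ± 149 CPM opposite it and 21 and 27 reads on its own strand. Mir409, Mir376a, Mir380 and Mir299a are plus-strand genes of GENCODE M21 that are not rows of these tables, so the reads are given by entry. Mir376b, the fifth plus-strand gene of the window that is not a row, overlaps none of the entries and was not analysed here.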

How the results depend on the processing

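The share of the block was 3.85% with reads without regard to strand, 1.88% with all reads of the library as the total, 2.40% without the 4 members sharing 20 nt and 5.06% with the reads opposite the 4 minus-strand entries, and from 3.89% to 4.04% with each library alone. The median level of the 34 members, 200.3 CPM, became 195 and 95.01 CPM under the first and second of these, and was 200.3 CPM under TMM. The ratios to the other clusters kept their direction under every alternative run. Without the sharers of every cluster they were 0.64 and -1.83, and with the opposite-strand reads 1.73 and -0.74 (log2, upstream genes and X-linked cluster). Detected members were 25 of the 30 that remained without the sharers. Of all 34 they were 28 to 31 in the other alternatives, and with each library alone 29 and 30. The first 8 held 87.4% without the sharers. Members of shared seed groups held 50.0% with a seed of bases 2 to 7, by construction, since 13 members then share one. The median ratio between the libraries was above 0, at 0.0071 with TMM and 0.012 with all reads as the total. It was below 0, at -0.0027, with DESeq2 size factors. Intervals above 0 numbered 6, 6 and 5 with TMM, all reads and DESeq2 size factors, against 3. The cause was not tested, and the percent over all detected genes was not computed under these scalings. Mir134 and Mir300 gained an interval above 0 and Mir667 and Mir496a lost theirs below 0 in all of these scalings. Depth limits the members under 100 CPM, whose intervals are wide.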
